A study of Mus musculus with 2 samples.

Results

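The genes described here are 10 genes by which the cells of blood vessels in the brain are commonly recognised: Cldn5, Cdh5, Pecam1, Erg, Kdr, Flt1, Tek and Slc2a1 of endothelial cells, and Pdgfrb and Foxf2 of pericytes. They were chosen by name, as 10 of the 21670 protein-coding genes of the autosomes and the X chromosome in the mouse annotation. Each was described by every deposited peak within 500 bp of its alternative coding starts, in its gene body and in the 50 kb on either side. The measurements come from DNase-seq of the cerebellum of B6CASTF1/J males at the age of 4 days, in 2 libraries. This strain is a hybrid of C57BL/6J and the wild-derived CAST/EiJ, it carries no engineered allele, and no treatment is named. Each label names 3 males and gives a biological replicate number, 1 or 2. Both labels give the same donor entry, and whether the libraries share animals is not given. There is 1 group, so no condition was compared, no test was made, and the spread between the libraries is the only error available.

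DNase I cuts DNA that is not wrapped tightly in nucleosomes, and a stretch with many cuts is called as a peak. Inside a peak, a short run of bases with few cuts is called as a footprint, which can mark a bound protein. Brain endothelial cells line the capillaries and form the blood-brain barrier through tight junctions, selective transporters and low vesicle traffic. Pericytes wrap around them and are recruited through PDGF-B, which endothelial cells secrete and the receptor PDGFRβ on pericytes binds. In the cerebellum of a newborn mouse, vessels still grow into a tissue made largely of granule cells and their progenitors, so vascular cells are a small part of the nuclei.

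The peak value used throughout is the authors' signal per peak, normalised by them for depth, in units of their own. Each library's values come in even steps, of 0.00645 for replicate 1 and 0.00665 for replicate 2. Intervals given below are exact 95% Poisson intervals on the number of steps. They assume that 1 step stands for 1 cut and cover counting error only. Replicate 1 had 61896 peaks with a median value of 0.787, and replicate 2 had 131518 with a median of 0.625. The stricter deposited lists held 36611 and 79019 peaks. The depth in reads is unknown.

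The sequences below are shown because the results on coding starts turn on them. Bases in capitals lie inside a footprint: of both libraries for Slc2a1, of replicate 1 for Flt1 and Erg, and of replicate 2 for Cldn5. All are written along the gene's strand, from the GRCm38 (mm10) assembly, and those of Slc2a1 and Flt1 stop at the base before the RefSeq transcript start. The Slc2a1 sequence is chr4:119108641-119108744 on the plus strand, and the Flt1 sequence is chr5:147726012-147726100 on the minus strand. That of Cldn5 is chr16:18776738-18776805 on the plus strand. That of Erg is chr16:95458711-95458780 on the minus strand, in an intron of the longer transcripts.
Slc2a1: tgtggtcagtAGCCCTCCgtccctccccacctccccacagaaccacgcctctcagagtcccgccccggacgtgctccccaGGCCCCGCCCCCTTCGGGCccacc
Flt1: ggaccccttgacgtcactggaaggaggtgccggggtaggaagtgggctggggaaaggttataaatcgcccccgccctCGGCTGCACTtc
Cldn5: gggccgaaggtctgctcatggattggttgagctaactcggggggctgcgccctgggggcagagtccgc
Erg: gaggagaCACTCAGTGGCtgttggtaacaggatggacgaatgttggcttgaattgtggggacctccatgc
The Slc2a1 stretch holds 2 GC boxes (GGGCGG on either strand, the core bound by SP factors). The one at position 85 falls inside the footprint that both libraries share. The Flt1 stretch holds the TATA box letters TATAAA, searched for after the sequences had been seen, 31 bp before the 5′-most coding start, and an ETS core (AGGAAG) at position 37. It also holds a GC box at position 71, 19 bp before the same start. None of these Flt1 matches touches a footprint of replicate 1. The Cldn5 stretch holds no footprint. None of the 16 vascular and general motifs searched occurs in the Cldn5 or Erg stretch.

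Only 3 of the 10 genes had a peak at a coding start in both libraries: Slc2a1, Kdr and Flt1. Cldn5, Cdh5 and Pdgfrb had one in replicate 2 alone, Erg had one in replicate 1 alone, and Pecam1, Tek and Foxf2 had none. Over all protein-coding genes, 58.9% had a start peak in both libraries, 59.9% in replicate 1 and 65% in replicate 2. The 10 genes had 4 in replicate 1 and 6 in replicate 2. In the stricter lists, where 52.3% of all genes had a start peak in both libraries, Flt1 and Slc2a1 did.

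**Figure D1:**
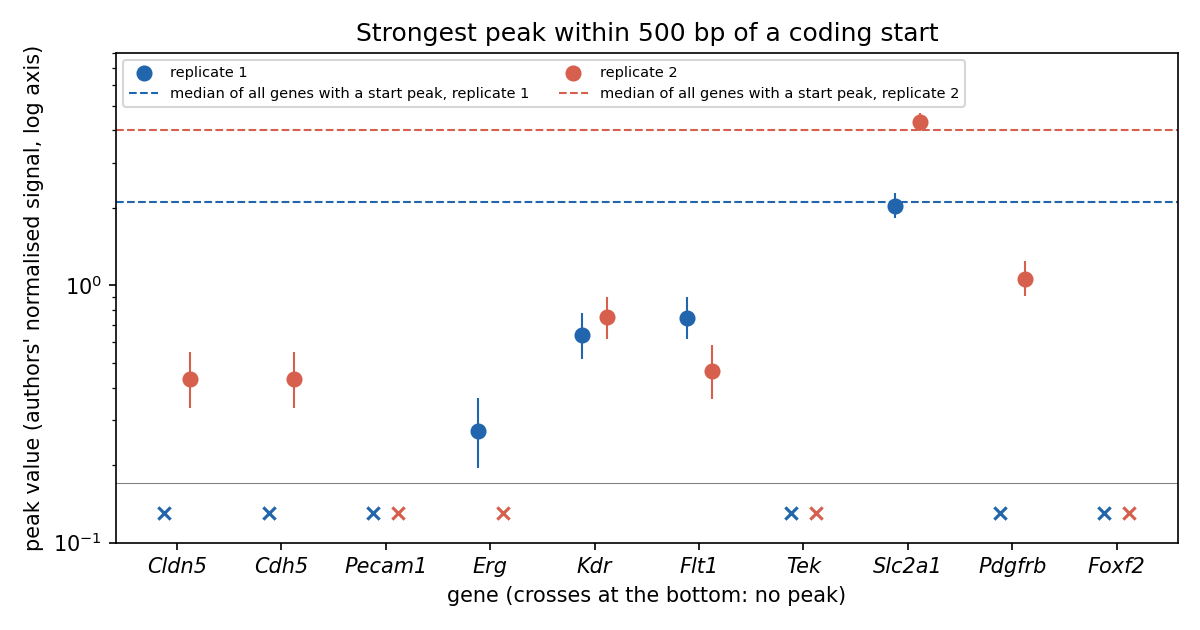
Value of the strongest peak within 500 bp of a coding start (log axis) for each gene in replicate 1 (blue) and replicate 2 (red), with 95% Poisson intervals; crosses below the grey line mark genes with no peak, and dashed lines the medians of all genes with a start peak. Slc2a1 alone lies near the dashed lines, and the other values of the 10 genes lie below them.

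Slc2a1 encodes GLUT1, the glucose transporter of the blood-brain barrier, which glia and other cells also use. Its strongest start peak had a value of 2.04 in replicate 1 (1.82 to 2.28) and 4.32 in replicate 2 (3.99 to 4.66), a mean of 3.18 ± 1.61 (SD, n = 2). These stood at the 48th and 53.2th percentile of the genes with a start peak in the same library. The log2 difference between the libraries was 1.08, beside a median of 1.02 ± 0.60 (SD) over the 12774 genes with a start peak in both. A further peak lay in an intron, with values of 1.35 and 1.26. All 4 annotated coding starts of Slc2a1, from position 119108711 to 119108869 on chromosome 4, shared these peaks.

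Kdr encodes VEGFR2, the main signalling receptor for VEGF-A on endothelial cells. Its peak just before the start had a value of 0.639 in replicate 1 (0.519 to 0.778) and 0.752 in replicate 2 (0.62 to 0.904), a mean of 0.695 ± 0.0799 (SD, n = 2). The intervals overlap, and the values stood at the 6.22th and 11.5th percentile of open starts. A weaker peak over the first exon had 0.529 and 0.472. Neither Kdr peak of replicate 1 was in its stricter list, whereas both of replicate 2 were in theirs.

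Flt1 encodes VEGFR1, which binds VEGF-A and limits what reaches VEGFR2. Its strongest start peak, over the first exon, had a value of 0.748 in replicate 1 (0.618 to 0.898) and 0.466 in replicate 2 (0.363 to 0.588), a mean of 0.607 ± 0.2 (SD, n = 2). The intervals do not overlap, and the log2 difference of -0.68 has the opposite sign to that of most genes: 92.6% of genes open in both libraries were higher in replicate 2. The Flt1 values stood at the 9.98th and 5.15th percentile of open starts, and whether starts this weak differ from that share was not tested. A peak over the transcript start itself, whose upstream bases are printed above, was called in replicate 1 alone, with 0.645. A peak centred 355 bp before the start was called in replicate 2 alone, with 0.379. Slc2a1 stood above Kdr and Flt1 in both libraries. Flt1 was above Kdr in replicate 1, where their intervals overlap. Kdr was above Flt1 in replicate 2, where the intervals, 0.62 to 0.904 and 0.363 to 0.588, do not overlap. The means of Kdr and Flt1 do not differ beyond the SD over the libraries.

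Cldn5 encodes claudin-5, the main tight-junction protein of brain endothelium, and Cdh5 encodes VE-cadherin, the adherens-junction protein of all endothelium. Each had a start peak of 0.432 in replicate 2 (0.334 to 0.551, 65 steps) and none in replicate 1. Neither peak was in the stricter list, and both stood at the 4.38th percentile of open starts. The lowest FDR of the cut rate that the authors deposited within 500 bp of the start was 0.028 at Cldn5 and 0.035 at Cdh5 in replicate 2. Replicate 1 had no interval below the deposited limit of 0.05 there. The Cldn5 peak ended 42 bp before the annotated start.

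Pecam1 encodes CD31, an adhesion molecule of endothelium that platelets and some leukocytes also carry. None of its 6 coding starts had a peak, a footprint or an interval with an FDR below 0.05 in either library. Tek, which encodes TIE2, the receptor of the angiopoietins, was alike at its 3 starts. Foxf2, a forkhead factor of brain pericytes, was alike at its only start. At this depth a start in these 3 genes was not detectable, which does not show that it is closed in every cell. In whole tissue, fewer cells of a type and less accessible DNA per cell cannot be told apart.

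Erg encodes an ETS-family factor that maintains endothelial identity. Its peak of 0.271 in replicate 1 (0.195 to 0.366, 42 steps) lay 465 bp inside the start of the transcripts Erg-202 and Erg-205, at the edge of the window. It was in the stricter list of that library. No interval below an FDR of 0.05 lay there in replicate 2. Both libraries had a peak 681 to 853 bp inside the 5′-most start, with values of 0.716 and 0.718. With a window of 2000 bp that peak counts, and Erg and Cdh5 join the genes open in both libraries, which makes 5 of 10. A wider window can only raise the share over all genes as well, and that share at 2000 bp is not given.

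Pdgfrb encodes PDGFRβ, the receptor through which pericytes are recruited. Its start peak, at chr18:61045021-61045240, had a value of 1.06 in replicate 2 (0.906 to 1.24, 160 steps) and was in the stricter list. Its lowest FDR there was 1e-07. Replicate 1 had no peak, footprint or FDR interval at the start. Of the genes whose start peak was called in 1 library only, Pdgfrb had the highest value.

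Coding starts rich in CpG dinucleotides are open in most tissues, so the 10 genes were placed in 10 classes of equal size by the CpG count of their start window. Pecam1, Cdh5 and Tek fell in class 3, where 9.55% of all genes had a start peak in both libraries. Erg and Pdgfrb fell in class 4, with 38.6%, and Cldn5 in class 5, with 79.4%. Kdr was in class 7, with 91%, and Flt1 and Slc2a1 were in class 9, with 94%. Foxf2 was in class 10, with 104 CpG and a share of 95.1%. Its start still had no peak. Of the 6 genes in classes 1 to 5, 0 were open in both libraries, and of the 4 in classes 6 to 10, 3 were. The same counts over all genes were 2807 of 10835 and 9967 of 10835.

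Footprints at coding starts followed the peaks, except at Cldn5, which had a start peak in replicate 2 and no start footprint. Slc2a1 had 7 in each library, Flt1 5 in each, and Kdr 2 in replicate 1 and 5 in replicate 2, so 3 of the 10 genes had one in both libraries, beside 56.5% of all genes. Erg had 2 in replicate 1 alone. Pdgfrb had 2 and Cdh5 1 in replicate 2 alone. An FDR interval below 0.05 lay at a start in both libraries for 59.9% of all genes and for Kdr, Flt1 and Slc2a1 among the 10.

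Around the 10 genes, over 1789 kb, replicate 1 had 89 peaks and replicate 2 had 121. Of these, 47 of replicate 1 and 47 of replicate 2 overlapped a peak of the other library by at least 1 bp. That is 52.8% of the peaks of replicate 1, beside 71.1% of all its peaks, and 38.8% of those of replicate 2, beside 33.4%. Without the Cdh5 locus the counts were 49 and 105, and 79.6% of the peaks of replicate 1 were shared. Most of the peaks, 69 and 94, lay over 1000 bp from any coding start, and 30 of these were shared. Without the Cdh5 locus these distal counts were 31 and 81, with 24 shared. The share over all distal peaks of each library is not given. Starts of other coding genes within all 10 loci held 10 and 12 peaks. Those of Ddx5 beside Pecam1 had the highest values of any locus, 5.06 and 13.7.

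**Figure D2:**
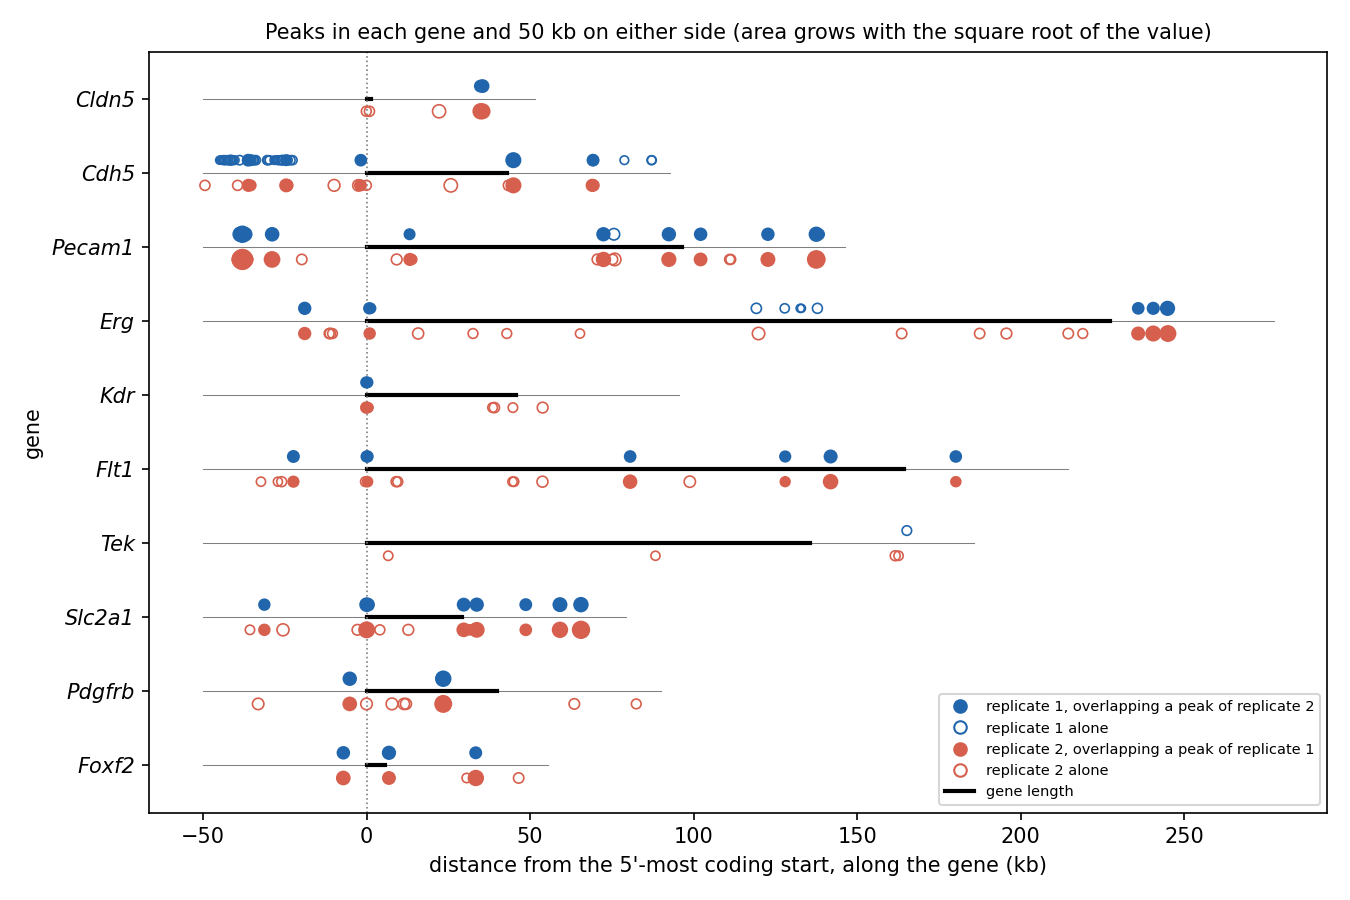
Peaks of replicate 1 (blue, above each line) and replicate 2 (red, below) by distance in kb from the 5′-most coding start, along the gene; filled circles overlap a peak of the other library, open circles do not, and the circle's area grows with the square root of the value. Replicate 1 has a dense row of open circles before Cdh5, and Tek has no filled circle.

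The pairs described next overlap by at least 1 bp by definition, which itself limits how far apart their midpoints can lie. Peaks that lay close without overlapping were counted as not shared. Examples are peaks in a Pecam1 intron, of 1.04 in replicate 1 and 1.64 in replicate 2. Over 48 overlapping pairs the midpoints lay a median of 10 bp apart, at most 217 bp, and the shared bases made up a median of 80% of the pair's combined length. In 5 pairs both ends were identical. Shared peaks had higher values: medians of 1.15 and 1.91 in replicates 1 and 2, against 0.213 and 0.476 for peaks that were not shared. Over all peaks of each library the corresponding medians were 1.06 and 1.71 against 0.323 and 0.472. Most of the peaks of replicate 1 that were not shared came from the Cdh5 locus, so the 0.213 reflects mainly that locus. Its 40 peaks in replicate 1, of which 8 were shared, had a median of 0.216.

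The shared peaks of replicate 1 had a median log2 difference, replicate 2 minus replicate 1, of 0.58 ± 0.72 (SD, n = 47 peaks), from -0.89 to 2.08, and 34 of 47 were higher in replicate 2. Over all 44000 shared peaks of replicate 1 the median was 0.63 ± 0.71, and 80.5% were higher in replicate 2. The Flt1 locus had a median of the opposite sign. Of its 6 shared peaks, 4 were lower in replicate 2, and the median was -0.62. In the Pecam1 locus, 11 of 11 were higher, with a median of 0.90, including peaks at or near the starts of Tex2, Polg2 and Ddx5.

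**Figure D3:**
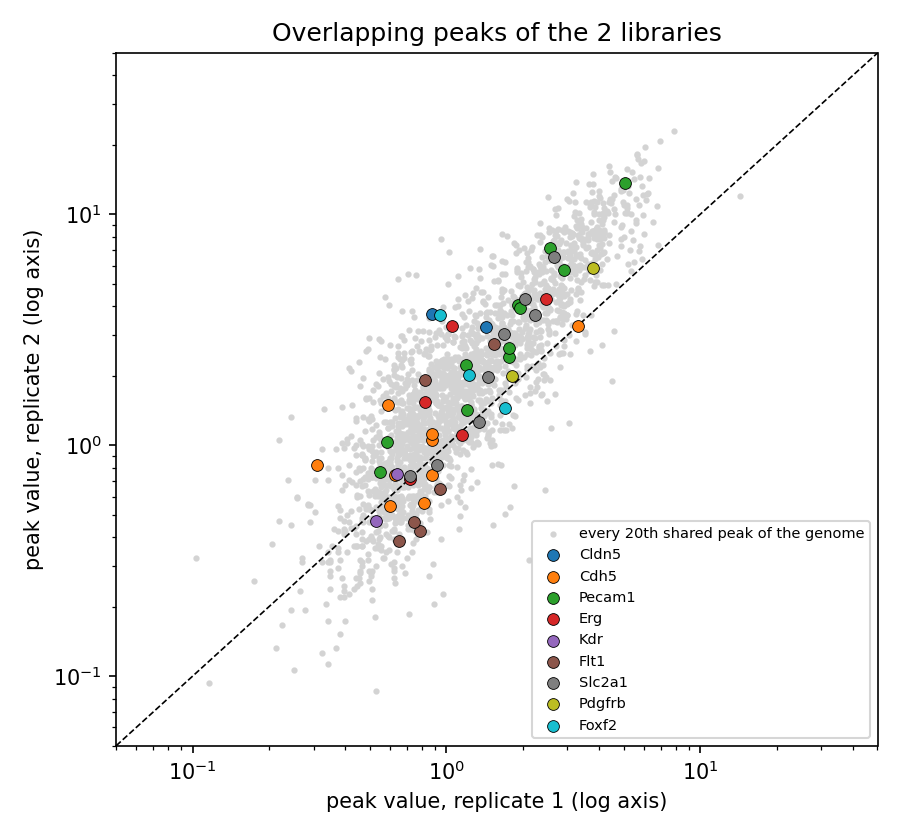
Values of overlapping peaks in replicate 1 (x) and replicate 2 (y), both on log axes; coloured points are the 48 pairs around the 10 genes, grey points every 20th shared peak of the genome, and the dashed line marks equal values. Most coloured points lie above the line within the grey cloud, and 4 of Flt1 lie below it.

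The peaks that both libraries shared far from any start differed widely between genes. Foxf2, with no start peak, had 3 of them, and all 3 of its peaks in replicate 1 were shared. They lay 7096 bp before the start (values 1.23 and 2.02), 6844 bp after it (1.7 and 1.45) and 33376 bp after it (0.948 and 3.65). Their sequences, from the positions called in replicate 2, are shown because they carry the only shared open chromatin around this gene. They are chr13:31618621-31618780, chr13:31632581-31632740 and chr13:31659121-31659320 of mm10, all intergenic, on the plus strand, with capitals for bases in footprints of both libraries.
Foxf2 upstream: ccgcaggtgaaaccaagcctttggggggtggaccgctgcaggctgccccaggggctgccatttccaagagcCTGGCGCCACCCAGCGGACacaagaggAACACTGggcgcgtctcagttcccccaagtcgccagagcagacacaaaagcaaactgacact
Foxf2 near downstream: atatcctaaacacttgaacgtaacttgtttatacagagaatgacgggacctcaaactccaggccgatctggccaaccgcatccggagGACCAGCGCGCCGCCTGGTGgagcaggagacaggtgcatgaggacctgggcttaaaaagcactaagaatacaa
Foxf2 far downstream: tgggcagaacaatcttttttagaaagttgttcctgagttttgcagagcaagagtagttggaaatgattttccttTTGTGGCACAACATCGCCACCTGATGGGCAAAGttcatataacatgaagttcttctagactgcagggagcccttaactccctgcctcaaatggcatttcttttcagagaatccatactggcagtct
After these sequences had been seen, the core of the CTCF motif, an insulator protein that many cell types carry, was added to the motifs searched. The near and far downstream peaks each hold it with 1 mismatch, overlapping the longest footprint that both libraries share. The upstream peak holds it with 2 mismatches, as do 64.7% of all distal shared peaks.

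For comparison, distal shared peaks of Cdh5, Erg and Pecam1 are given next, chosen by their mean value over the libraries, again with capitals for footprints of both libraries. The Cdh5 peak lies beyond the end of the gene, 44896 bp from its 5′-most start, at chr8:104146441-104146600 on the plus strand. It had a value of 3.29 in both libraries, the highest of its locus in each. The Erg peak lies beyond the end of Erg at chr16:95345981-95346140, on the minus strand (values 1.05 and 3.27). It is the second by mean value: the first of Erg, with 2.46 and 4.3, spans 400 bp in replicate 2, is not shown, and does not hold the CTCF core with at most 1 mismatch. The Pecam1 peak lies in an intron at chr11:106678101-106678280 on the minus strand (1.77 and 2.63) and has the highest mean of the distal shared peaks of its locus. In replicate 1 its value equals that of another intron peak to 3 digits.
Cdh5 downstream: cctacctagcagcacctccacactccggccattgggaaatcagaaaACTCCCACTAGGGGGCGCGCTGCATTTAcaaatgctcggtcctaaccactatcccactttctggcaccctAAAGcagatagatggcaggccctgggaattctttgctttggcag
Erg downstream: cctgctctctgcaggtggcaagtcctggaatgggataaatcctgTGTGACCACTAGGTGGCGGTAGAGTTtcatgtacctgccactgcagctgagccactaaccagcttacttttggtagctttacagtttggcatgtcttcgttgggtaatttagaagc
Pecam1 intron: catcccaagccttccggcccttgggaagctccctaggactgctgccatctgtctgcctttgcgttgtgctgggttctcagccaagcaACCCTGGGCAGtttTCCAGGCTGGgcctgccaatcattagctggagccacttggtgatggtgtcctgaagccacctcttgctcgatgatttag
The first of the stretches, from Cdh5, holds the CTCF core without a mismatch at position 51, inside the longest shared footprint, and that of Erg holds it at position 50, likewise inside. The Pecam1 intron holds the longer ETS core CCGGAAG at position 11, outside its footprints.

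Over the 30 distal shared peaks around the 10 genes, read as 200 bp at the midpoint, 7 held the CTCF core without a mismatch (23.3%, beside 16% of 24085 distal shared peaks) and 16 held it with at most 1 (53.3%, beside 41.2%). Among 32851 RefSeq promoters of 300 bp, the shares were 0.557% and 4.33%. The ETS core AGGAAG occurred in 7 (23.3%, beside 24.2%), CCGGAAG in 2 (6.67%, beside 2.06%) and ACAGGAA in 1 (3.33%, beside 5.74%). The GATA core NGATAA was in 6 (20%, beside 13.5%) and the TEAD core GGAATG in 6 (20%, beside 10.7%). The forkhead core TGTTTNC was in 4 (13.3%, beside 14.7%), and the SOX core CATTGT was in 3 (10%, beside 8.13%). The TCF and LEF core CTTTGAT and the AP-1 motif TGANTCA were in 0 of 30, beside 2.09% and 5.13%. The letters of the ETS cores can overlap one another, matches were counted on both strands, and a match is a description of the letters only. The windows had a mean GC content of 53.1%, beside 53.9% for all distal shared peaks.

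RefSeq promoters, from 250 bp before to 50 bp after a transcript start on GRCm38.p6, were matched for 7 of the 10 genes, with 9 promoters in all. Genes are named here by any of their promoters, of which Erg has several, whereas the shares over all are per promoter. The GC box GGGCGG occurred in those of Cldn5, Erg, Kdr, Flt1, Slc2a1 and Foxf2 and not in that of Tek, beside 35.7% of all RefSeq promoters. The ETS core AGGAAG occurred in those of Erg, Flt1 and Foxf2, beside 35.4%.

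Slc2a1 had 5 distal shared peaks, and all 8 of its peaks in replicate 1 were shared. The strongest, near the neighbour Zfp691, had values of 2.23 and 3.65. Another lay just beyond the end of Slc2a1, with 1.46 and 1.98. Flt1 had 5, of which 3 lay in its introns. The strongest of these had 1.54 and 2.74 and holds the CTCF core without a mismatch. Another, 80590 bp from the start, had 0.826 and 1.91. Erg had 4. Of these, 3 lay beyond its end (2.46 and 4.3 at the strongest), and 1 lay 18908 bp before its 5′-most start, with 1.15 and 1.11.

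Pecam1 had 5, of which 3 lay in its introns. Besides the peak printed above, one nearer the end of the gene had 1.77 and 2.4, and one 13149 bp from the 5′-most start had 0.581 and 1.03. So Pecam1 had open introns in both libraries and no open start.

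Kdr, Cldn5 and Tek had no distal peak shared by both libraries. All 4 distal peaks of Kdr came from replicate 2, with values of 0.326 to 0.698. Tek had the sparsest locus. Over 235.7 kb, replicate 1 had 1 peak, of 0.348, and replicate 2 had 4, of 0.253 to 0.439, with no overlap. In the Cldn5 locus the shared peaks were the starts of the neighbours Cdc45 and Ufd1. A peak of 2.05 in an intron of Cdc45, 22174 bp from the start of Cldn5, was called in replicate 2 alone.

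Pdgfrb had the strongest distal shared peak of the 10 loci. It lay in an intron, at chr18:61068501-61068680, with values of 3.78 and 5.83, at the 96.2th and 96.1th percentile of all peaks of each library. Both libraries gave it the same ends. A peak at chr18:61039921-61040100, 5140 bp before the start and nearer to Cdx1, had values of 1.81 and 2.00, again with the same ends. So replicate 1, which had no start peak in Pdgfrb, had an intron peak among its strongest. Both of these shared Pdgfrb peaks hold the CTCF core without a mismatch, as do 16% of all distal shared peaks. All 9 footprints of replicate 1 in this locus overlapped one of replicate 2.

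Across the loci, replicate 1 had 138 footprints and replicate 2 had 234. Of those of replicate 1, 77 shared at least 1 base with one of replicate 2 (55.8%, beside 56.3% of all footprints of replicate 1). Without the Cdh5 locus the count was 71 of 105 (67.6%). Only 3 footprints had identical ends in both libraries. The share by gene ran from 18.2% in Cdh5 to 100% in Pdgfrb and Foxf2. Tek had 0 footprints in replicate 1.

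The Cdh5 locus stood apart in replicate 1. Of its 40 peaks, 33 lay in a run of 22457 bp upstream of the gene, chr8:104056624-104079080, where replicate 2 had 5. In this run, 30 of the 33 had values below 0.4, with a median of 0.213 over the run. Of these 30, 1 overlapped a peak of replicate 2, beside 9.09% of all 12262 peaks of replicate 1 below 0.4. The 5 peaks of replicate 2 in the run had values of 0.466 to 1.5. Intervals with an FDR below 0.05 covered 9971 bases of the run in replicate 1 and 916 in replicate 2. The stricter list of replicate 1 held 23 of the 30 weak peaks. Among all peaks of replicate 1 below 0.4 in the genome it held 50%.

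Such runs occurred elsewhere. With a limit of 10 or more peaks below 0.4 in 25 kb, both chosen after the values were seen, replicate 1 had 280 such windows and replicate 2 had 17. Among the 10 loci, only that of Cdh5 held one. The instruments named in the labels of replicate 1 are an Illumina NovaSeq 6000 and an Illumina HiSeq 4000, and for replicate 2 none is named. Their part in these runs was not tested. In the rest of the Cdh5 locus, shared peaks lay 1757 bp before the start (0.819 in replicate 1 and 0.565 in replicate 2), beyond the gene's end (above) and at the start of Bean1. Other peaks there were called in 1 library alone. Those of replicate 1, of 0.168, 0.213 and 0.206, lay in an intron of Bean1. The highest of replicate 2 alone, of 2.21, lay in an intron of Cdh5.

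**Figure D4:**
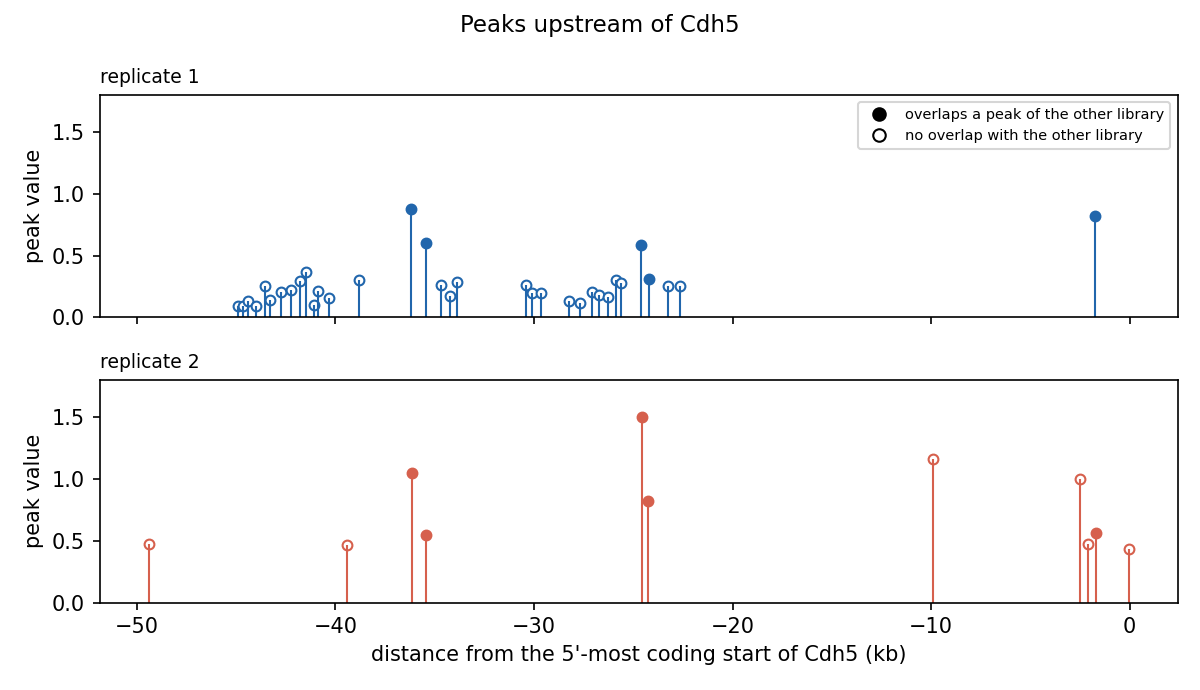
Peaks in the 50 kb before the 5′-most coding start of Cdh5, as value against distance in kb, for replicate 1 (top) and replicate 2 (bottom); filled circles overlap a peak of the other library. Replicate 1 has a run of low open circles between about 45 and 22 kb before the start, and replicate 2 has 5 peaks there, each at 0.466 or more.

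Other genes of the vascular pathways were counted from lists made with earlier results of these data known. Of 91 such genes, 44 had a start peak in both libraries (48.4%), 4 in replicate 1 alone, 12 in replicate 2 alone and 31 in neither. The shares are set beside that of all genes, 58.9%, with no test between lists. Of 20 endothelial surface and junction genes, 3 were open in both libraries (15%). Esam, a junctional adhesion molecule, was one of them, with values of 0.574 and 1.11. Egfl7, a protein that endothelial cells secrete, was another, with 1.66 and 1.64. Tie1 and Eng, receptors for vessel growth, and the sialomucin Emcn had no start peak. In this list, 16 of 20 genes fell in the CpG classes 1 to 5, and 2 of these 16 were open in both libraries. Over all genes in these classes 2807 of 10835 were, with shares from 0.185% in class 1 to 79.4% in class 5.

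Of 13 endothelial transcription factors, 8 were open in both libraries (61.5%), all of them among the 11 in CpG classes 6 to 10. Ets1, an ETS factor that lymphocytes also use, had 2.43 and 3.18. Klf2, a flow-responsive factor of endothelium, had 1.79 and 4.87, below Ets1 in replicate 1 and above it in replicate 2. Fli1, Etv2 and Sox7 had none. Of 19 blood-brain barrier genes, 14 were open in both (73.7%), of which 13 were among the 14 in CpG classes 6 to 10. The highest mean value was that of Bsg, which encodes basigin, a partner of monocarboxylate transporters in many cell types, with 3.86 and 12.4. In replicate 1, Slc7a5 stood above Bsg, with 4.07. Mfsd2a, the lipid transporter that restrains vesicle traffic in brain endothelium, had 0.645 and 1.74. The efflux pumps Abcb1a and Abcg2 had 0.535 and 0.306, and 0.922 and 1.08. The thyroid hormone transporter Slco1c1 had 0.579 in replicate 2 alone.

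Of 17 pericyte and smooth muscle genes, 6 were open in both libraries (35.3%) and 4 in replicate 2 alone, and 12 of the 17 fell in CpG classes 1 to 5. Mcam, an adhesion molecule of mural cells and endothelium, had 1.54 and 1.22. The potassium channel gene Kcnj8 had 0.664 and 0.592. Its partner Abcc9, the sulfonylurea receptor subunit, had 0.286, and Rgs5, a regulator of G-protein signalling, had 0.466, each in replicate 2 alone. Anpep had none.

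The ligands of the receptors described here come largely from other cells. Of 12 ligands and co-receptors of KDR, FLT1, TIE2 and PDGFRβ, 6 were open in both libraries (50%), with 5 of these among the 6 genes in CpG classes 6 to 10. Vegfa, the ligand of KDR and FLT1, had 2.89 and 5.88, above every start peak of the 10 genes in the same library. Vegfc had 0.652 and 1.02, and Vegfb had 1.38 and Vegfd 0.851 in replicate 2 alone. Of 10 genes of Wnt and norrin signalling to brain endothelium, 7 were open in both (70%), all among the 9 in CpG classes 6 to 10. Ctnnb1, which encodes β-catenin and is used in most cells, had 4.13 and 9.67. The ligand Wnt7a had 1.82 and 3.33, and Fzd4, the receptor of norrin, had 2.52 and 5.17. Ndp, which encodes norrin, had 0.393 in replicate 1 alone, and Wnt7b had no start peak.

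**Figure D5:**
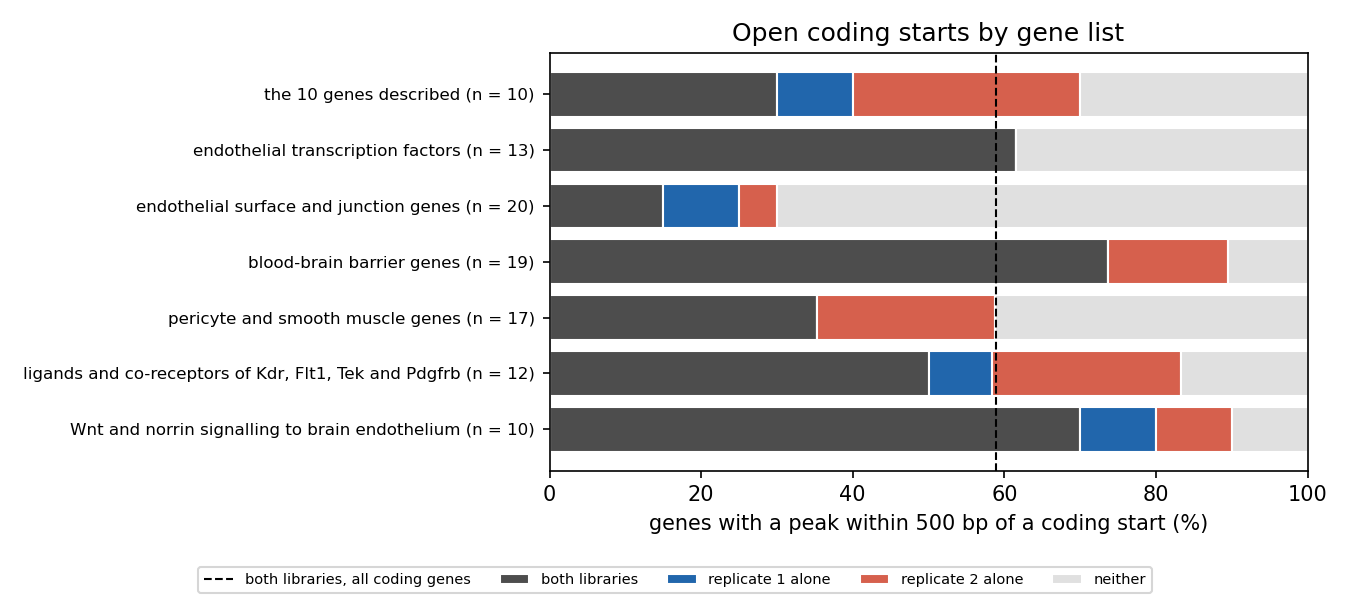
Percentage of the genes in each list with a start peak in both libraries (dark grey), replicate 1 alone (blue), replicate 2 alone (red) or neither (light grey); the dashed line is the share of all coding genes open in both, 58.9%. Blood-brain barrier and Wnt genes lie to the right of the line, and the 10 genes described and the endothelial surface genes to the left.

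The tissue label was set beside markers of other cells, whose counts also move with CpG class. Over all genes 58.9% were open in both libraries. Of the granule cell lineage, the main neurons of the cerebellum, 6 of 8 markers were open in both libraries, such as Atoh1 (0.587 and 0.492), Neurod1 (1.48 and 1.82) and Mycn (1.72 and 5.49). Barhl1 had no start peak, and Pax6 had one of 3.66 in replicate 2 alone. In this list, 7 of 8 genes fell in CpG classes 6 to 10, with 5 of them open in both, beside 9967 of 10835 of all genes in these classes. Of Purkinje cell markers 5 of 6 were open in both, such as Itpr1 (2.89 and 8.32), and Pcp2 had no start peak. Of astrocytes and Bergmann glia 4 of 8 were, such as Sox9 (2.04 and 5.71). Aqp4, Gfap, Aldh1l1 and Gja1 had a start peak in replicate 2 alone. Microglia and myeloid cells had 0 of 8, with no start peak in either library. All 8 of these genes fell in CpG classes 1 to 5, where 2807 of 10835 of all genes were open in both. The red blood cell lineage and the choroid plexus had 0 of 6 each in both libraries and 1 each in replicate 2 alone. Meninges and fibroblasts had 1 of 7, Aldh1a2 (0.968 and 0.698). The part of CpG class in these counts was not tested. Slc2a1, the only one of the 10 genes with a start value near the middle of all open starts, is also used by glia and neurons, and which cells gave its peak was not tested. The hybrid genome was aligned to a C57BL/6J reference, and the effect on single peaks was not tested.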

How the data were processed

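DNase-seq was made from 2 libraries of 1 group. For each library the authors deposited a less strict and a stricter peak list in narrowPeak format, called on that library alone against mm10, per the labels and the deposited description files. The signal column is the deposited peak value, which the authors scaled for depth by an unstated factor. The deposited FDR files hold a q-value of the cut rate per short interval, below 0.05. Deposited footprints carry a constant 0.01, so their positions alone were read. The names of the aligner and the callers were not given in the sources used here. Peak values were whole multiples of their library's step, within 0.05 steps.

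The less strict list was used unless stated. Coding starts came from GENCODE M21. Sequences came from the GRCm38.p6 assembly, whose 20 chromosomes were compared with the peaks, and none ran past a chromosome end. Peaks were joined at an overlap of at least 1 bp with Python 3.11.15, numpy 2.4.6, pandas 2.3.3, scipy 1.17.1 and pysam 0.24.0, and figures drawn with matplotlib 3.10.9. The overlap functions were checked on simulated data. The genes and lists were chosen with earlier results of these data known, and the rule for named genes took the first 4 of each list and its strongest by mean rank over the libraries. Of the marker lists only a few of these are printed, and Klf2, Slc7a5, Barhl1, Aldh1l1 and Gja1 were named after their values were seen. Each alternative changed 1 choice at a time: the peak list, windows, flanks, overlap, equal numbers of peaks, or 1 library left out. The sequence at the start of Cdh5 is not reported here.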

Additional observations from a re-analysis of the deposited data

How the results depend on the processing

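The 3 genes with a start peak in both libraries became 5 with a window of 2000 bp (Cdh5 at a mean of 0.692 and Erg at 0.717 joined), and 4 to 6 genes had one when a single library was read. With 100 bp, the stricter lists, equal numbers of peaks or a reciprocal overlap of 50%, the count was 2, and Slc2a1 stayed in it under each of the first 3. The footprint count at starts, 3, became 5 with 2000 bp and 1 with 100 bp, and was 4 to 5 in a single library. The 89 peaks of replicate 1 around the genes became 20 in the gene bodies alone and 49 without the Cdh5 locus, an alternative chosen after seeing the data. The 121 of replicate 2 became 77 in the stricter list, 48 in gene bodies, 196 with 100 kb on either side and 64 with equal numbers of peaks. The 47 shared peaks became 12 in gene bodies and 73 with 100 kb, and the 30 distal ones 19 in the stricter lists and 7 in gene bodies. The 77 shared footprints became 20 in gene bodies, 119 with 100 kb and 3 with identical ends. These follow from the windows and lists themselves. The median log2 difference ran from 0.51 to 0.91 over its alternatives. No paired analysis was possible because there is 1 group. The depth in reads is unknown, so an absent peak is only not detectable.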
